A study of Mus musculus with 6 samples.

Results

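The mTOR pathway was followed in kidney cells of a mouse model of autosomal dominant polycystic kidney disease (ADPKD) through 10 genes, chosen by name, out of 55367 gene symbols measured in every library. They are the kinase Mtor, its partners Rptor and Rictor, the TSC genes Tsc1 and Tsc2, the GTPase Rheb, the downstream genes Rps6kb1 and Eif4ebp1, and the stress-induced brakes Ddit4 and Sesn2. The study asked how the transcriptome of cystic cells differs from normal and after treatment with MMPP, melanin-like nanoparticles that scavenge reactive oxygen species. By the study's methods, RNA came from kidney epithelial cells bound by Dolichos biflorus lectin (DBA), which marks the collecting duct, with 2 libraries in each of 3 groups; the sample text says the same but also names whole kidney.

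The labels give Day115 for every library. The WT group had the WT genotype and received saline. The ADPKD group was Pkd1-/- and received saline. The ADPKD+MMPP group was Pkd1-/- and received mmpp. According to the study's methods the mutant line carried floxed Pkd1 and a Cre/Esr1 transgene, and tamoxifen deleted Pkd1 in young male mice, so both copies were lost after birth, whereas patients inherit a single altered copy. Whether the WT mice carried the transgene or received tamoxifen is not given in the sources used here. Nor do these sources say whether each library came from 1 mouse, so p-values measure only the spread between these libraries.

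mTOR is a protein kinase that matches growth to the supply of nutrients and growth factors. In complex 1 it is joined by raptor, the product of Rptor, and promotes protein synthesis by phosphorylating S6 kinase and 4E-BP1. In complex 2 it is joined by rictor and acts on AKT and SGK1. The GTPase Rheb switches complex 1 on, and hamartin and tuberin, the products of Tsc1 and Tsc2, switch Rheb off. DDIT4 and sestrin 2 restrain complex 1 under stress. High mTOR complex 1 activity has been described in polycystic kidneys, and it is read from phosphorylated proteins, which RNA levels do not show.

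The genotype was checked first. Pkd1 stood at 17.7 and 17.2 FPKM (fragments per kilobase of exon, scaled to the reads of each library) in WT, at 7.64 and 8.91 in ADPKD and at 4.34 and 3.99 in ADPKD+MMPP. It was lower than in WT in all 4 libraries labelled Pkd1-/-. For ADPKD+MMPP, genotype and the differences in counting described below cannot be told apart in this value. Esr1, part of the transgene's name, stood at 0.242 and 0.161 FPKM in WT, at 30.6 and 30.3 in ADPKD and at 0.471 and 0.510 in ADPKD+MMPP. The libraries labelled ADPKD+MMPP thus lacked the high Esr1 signal of the ADPKD libraries although both carry the same genotype label, and every direction given for that group below refers to the libraries so labelled.

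The ADPKD+MMPP libraries also stood apart in how their values were built. The steps between low values put the depth at 30.6 and 31.0 M reads in WT, at 33.1 and 32.1 M in ADPKD, and at 11.8 and 10.9 M in ADPKD+MMPP. Of the whole-number values of at most 20 reads, 35.8% to 37.9% were odd in WT and ADPKD, against 7.94% and 7.43% in ADPKD+MMPP. Most of these ADPKD+MMPP values were therefore even, and differences in counting and in treatment cannot be told apart between this group and the others.

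The change after MMPP moved with a property of the gene model. The exon share of a gene is the percentage of its exon bases found in a single annotated transcript. Over 12375 protein-coding genes, the log2 fold change of ADPKD+MMPP against ADPKD had a Spearman rho of 0.649 with this share. This is a correlation across genes, which are not independent replicates. The median change was -1.71 for genes with a share under 10% and 1.09 for those above 90%. For ADPKD against WT the rho was 0.05. Among 1309 genes with only 1 known transcript, the median was 0.03 for ADPKD against WT and 1.10 for ADPKD+MMPP against ADPKD. For these reasons the values of the 10 genes after MMPP are given with their exon shares. Pkd1 has an exon share of 56.3%, and genes with a share of 50% to 60% had a median of -0.34 in ADPKD+MMPP against ADPKD.

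**Figure D1:**
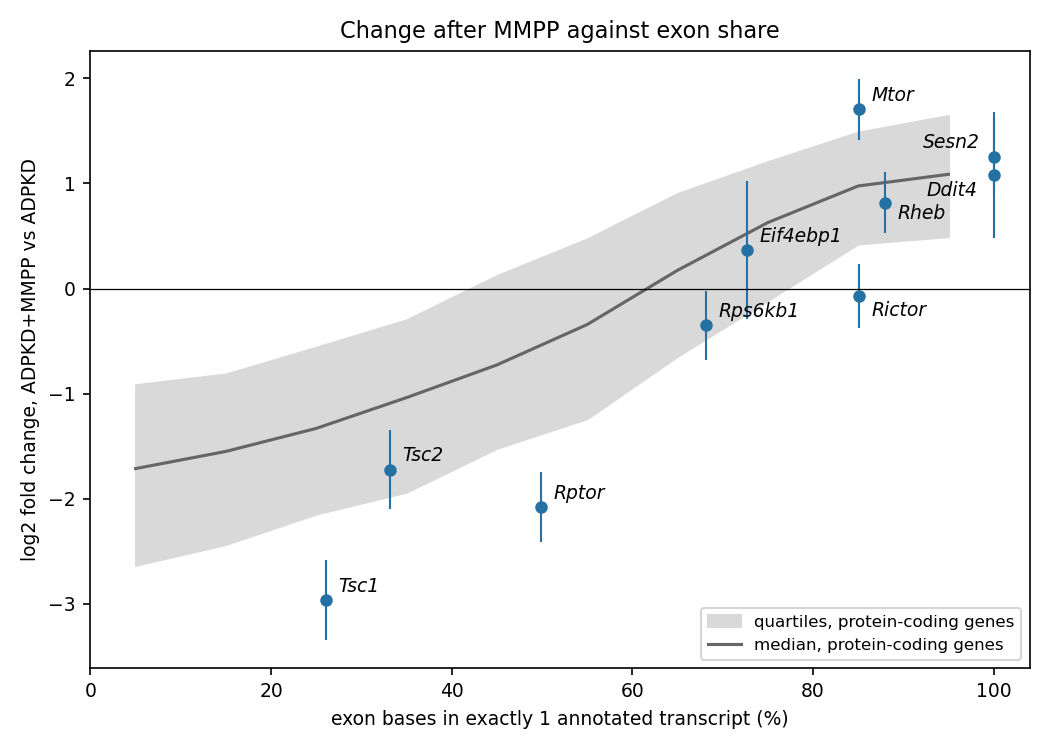
Log2 fold change of ADPKD+MMPP against ADPKD for the 10 genes (points, with 95% confidence intervals) against exon share in percent. The line and band give the median and quartiles of 12375 protein-coding genes in 10 ranges of that share; Tsc1, Rptor and Rictor lie below the band and Mtor above it.

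All 10 genes passed the filter of at least 1 FPKM in at least 2 libraries, as did 14862 genes in all. A gene was called when it differed by at least 1.5-fold with an unadjusted P under 0.05 in limma on the log2(FPKM + 1) scale. That scale understates changes of low genes. The study gave the same limits of fold and P with DESeq2, without saying whether P was adjusted. Adjusted p-values are Benjamini-Hochberg values over all 14862 genes. An exact permutation test of 2 libraries against 2 cannot go below p = 0.333, so the tests rest on the spread that limma shares between genes. All 3 comparisons share libraries with each other, so their values are given side by side and are not independent.

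In ADPKD against WT, 2 of the 10 genes were called, beside 26.7% of all tested genes (3970 of 14862). Eif4ebp1 was higher, as were 14.2% of tested genes (2109), and Tsc2 was lower, as were 12.5% (1861). The libraries of both groups did not overlap for 6 of the 10, beside 67.0% of tested genes (9960).  In ADPKD+MMPP against ADPKD, 7 were called, beside 70.9% of tested genes (10540). Of these, 4 were higher, beside 27.9% (4143), and 3 lower, beside 43.0% (6397), and 8 did not overlap, beside 87.8% (13047). In ADPKD+MMPP against WT, 9 were called, beside 73.9% (10984), with 5 higher beside 30.1% (4477) and 4 lower beside 43.8% (6507), and 9 did not overlap, beside 91.9% (13658).

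**Figure D2:**
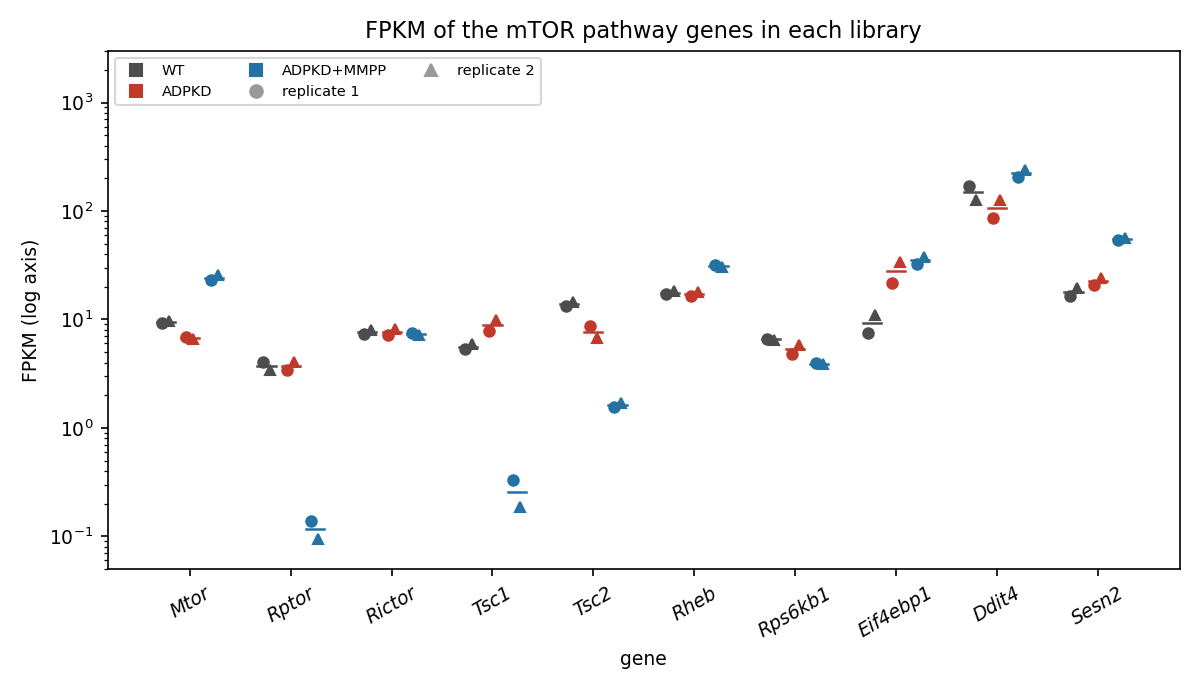
FPKM of each of the 10 genes on a log axis in all 6 libraries; circles are replicate 1, triangles replicate 2, and short lines the mean of the 2 libraries of a group. The WT and ADPKD libraries stay close for most genes, while Rptor and Tsc1 lie below 0.4 FPKM in the ADPKD+MMPP libraries.

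Mtor, the kinase of both complexes, lies on the plus strand of chromosome 4 and had 9.35 and 9.60 FPKM in WT, 6.88 and 6.58 in ADPKD, and 22.96 and 25.4 in ADPKD+MMPP. It was lowest in both ADPKD libraries and highest in both ADPKD+MMPP libraries, with no overlap between groups. Its difference between ADPKD and WT was -0.44 on the log2 scale (SE 0.12, limma adjusted p = 0.0432), which is under 1.5-fold, so the gene was not called. After MMPP it was 1.70 (SE 0.12, limma adjusted p = 8.53e-05), for a gene with 85.1% of its exon bases in 1 transcript. The planned centring by exon share, described below, left almost no difference from ADPKD and ended this call. The other form kept Mtor called higher. Against WT the planned form turned the direction of Mtor.

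Rptor encodes raptor, the scaffold that brings substrates to complex 1. It had 4.06 and 3.43 FPKM in WT, 3.44 and 4.04 in ADPKD, and 0.138 and 0.0953 in ADPKD+MMPP, the last 2 from 22 and 14 reads. WT and ADPKD libraries overlapped, with a log2 difference whose 95% confidence interval ran from -0.34 to 0.33. After MMPP the log2 fold change was -2.08 (SE 0.13, limma adjusted p = 7.01e-05), for a gene with 12 annotated transcripts and an exon share of 49.9%.

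Rictor, the complex 2 partner, was called in none of the 3 comparisons by limma without centring by exon share, at unadjusted P from 0.605 to 0.874. Rictor was called lower after MMPP against ADPKD in both forms of that centring, described below. In the same comparison Rictor turned positive with quantile normalization and with TMM-type factors. It had 7.28 and 7.93 FPKM in WT, 7.26 and 8.21 in ADPKD, and 7.45 and 7.20 in ADPKD+MMPP. The groups overlapped in all 3 comparisons, and the largest log2 fold change in size was -0.07, after MMPP. Its exon share is 85.1%, like that of Mtor, while for protein-coding genes with a share of 80% to 90% the median in that comparison was 0.98.

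Tsc1 and Tsc2 encode the subunits of the complex that switches Rheb off, and they went in opposite directions in ADPKD. Tsc1 had 5.33 and 5.91 FPKM in WT and 7.84 and 9.86 in ADPKD, a log2 fold change of 0.57 (SE 0.15, limma adjusted p = 0.0432) that stayed under 1.5-fold on the log2(FPKM + 1) scale, though not in FPKM itself. Tsc2 had 13.4 and 14.5 FPKM in WT and 8.73 and 6.70 in ADPKD, and it fell by 0.79 on the log2 scale (SE 0.15, limma adjusted p = 0.0170). Neither gene's WT and ADPKD libraries overlapped. Without WT replicate 2 or without ADPKD replicate 1, the change of Tsc1 was also called, at 0.63 and 0.72.

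Tsc2 is a neighbour of Pkd1. On chromosome 17 of GRCm38, Tsc2 runs on the minus strand from 24595816 to 24632630 and Pkd1 on the plus strand from 24549834 to 24596508, so that the genes end on top of each other. They share 693 exon bases, 7.20% of the 9620 exon bases of Tsc2. Pkd1 was called lower in ADPKD against WT, with a 95% confidence interval from -1.31 to -0.68 on the log2 scale (limma adjusted p = 0.00566). Whether the authors counted reads by strand, and which part of Pkd1 was deleted, are not given in the sources used here. The part of the shared bases, or of the Pkd1 deletion, in the Tsc2 value was not tested.

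After MMPP both TSC genes were lower than in every other library. Tsc1 had 0.329 and 0.186 FPKM, from 46 and 24 reads, and Tsc2 had 1.55 and 1.70 FPKM, from 176 and 178 reads. Their log2 fold changes against ADPKD were -2.96 and -1.72, with exon shares of 26.1% and 33.2% and 11 and 22 annotated transcripts. Genes with a share of 20% to 30% had a median of -1.33, and genes with a share of 30% to 40% one of -1.04.

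Rheb, the GTPase that activates complex 1, had 17.1 and 18.2 FPKM in WT, 16.5 and 17.99 in ADPKD, and 31.5 and 30.6 in ADPKD+MMPP. WT and ADPKD overlapped, while both ADPKD+MMPP libraries were higher. The log2 fold change after MMPP was 0.82 (SE 0.12, limma adjusted p = 0.00127), with an exon share of 88.0%. With the planned centring by exon share, described below, Rheb was called lower instead. With the other form its direction also turned, and neither that form nor a common sum of FPKM called it.

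Of the 10 genes, Eif4ebp1 had the largest log2 difference between WT and ADPKD. It encodes 4E-BP1, which holds back the cap-binding factor eIF4E until mTOR complex 1 phosphorylates it. It had 7.49 and 11.1 FPKM in WT, 21.9 and 33.6 in ADPKD, and 32.8 and 37.8 in ADPKD+MMPP. All 4 libraries labelled Pkd1-/- lay above both WT libraries, while ADPKD and ADPKD+MMPP overlapped. Against WT, the ADPKD value was 1.48 higher on the log2 scale (SE 0.26, limma adjusted p = 0.0136), and it was still called without each of the 6 libraries in turn. After MMPP the difference from ADPKD was 0.36, with a 95% confidence interval from -0.29 to 1.02, and it was called without ADPKD replicate 2, at 0.66. The exon share of Eif4ebp1 is 72.7%.

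Rps6kb1, which encodes S6 kinase 1, had 6.63 and 6.48 FPKM in WT, 4.76 and 5.83 in ADPKD, and 3.95 and 3.89 in ADPKD+MMPP. The groups did not overlap, and the level was lowest in ADPKD+MMPP. Only the difference of ADPKD+MMPP from WT was called, at -0.62 (SE 0.13, limma adjusted p = 0.00585). With quantile normalization this difference was -0.09 and with TMM-type factors -0.36, and neither was called. The exon share of Rps6kb1 is 68.2%.

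Ddit4 and Sesn2, the stress brakes, are single-transcript genes with an exon share of 100%. Ddit4, also known as Redd1, had 169.9 and 126.2 FPKM in WT, 86.3 and 127.2 in ADPKD, and 206.7 and 240.3 in ADPKD+MMPP. It had the highest level per length of the 10 genes in every library. Its ADPKD replicate 2 lay among the WT values, and without that library the gene was called lower in ADPKD, at -0.76. After MMPP the log2 fold change was 1.08 (SE 0.24, limma adjusted p = 0.00792). In both forms of centring by exon share it turned negative and was not called. Against WT it was 0.60 (SE 0.24), called by the unadjusted P but with a limma adjusted p of 0.0617, and it was not called without WT replicate 2 (0.39), ADPKD+MMPP replicate 1 (0.71) or ADPKD+MMPP replicate 2 (0.49). It was also not called with a common sum of FPKM (0.21) or quantile normalization (0.12), and it turned to -1.17 with the planned centring by exon share and -0.65 with the other form, both described below.

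Sesn2, whose product senses leucine and restrains complex 1, had 16.4 and 19.6 FPKM in WT, 20.8 and 24.4 in ADPKD, and 53.4 and 56.6 in ADPKD+MMPP. Both ADPKD+MMPP libraries lay above all others. Its difference between ADPKD and WT, 0.31 on the log2 scale, was not called, and after MMPP it was 1.25 (SE 0.15, limma adjusted p = 5.67e-04). With the planned centring by exon share the difference after MMPP turned negative. With the other form it stayed positive, and neither form called it. The values of Ddit4 and Sesn2 for ADPKD+MMPP against ADPKD, 1.08 and 1.25, lie within the quartiles of the single-transcript genes in that comparison, 0.48 and 1.68.

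Centring each library within bins of exon share changed which genes were called after MMPP, and the result depended on how the centring was done. With the median of the library added back, as planned, 6 of the 10 were called against ADPKD, beside 60.3% of 12375 protein-coding genes (7457). These were Rptor, Rictor, Tsc1, Tsc2, Rheb and Rps6kb1, each lower, while Mtor stood at 0.04. With no median added back, a form chosen after the first result was seen, 4 were called, beside 58.4% (7223): Mtor was higher, at 0.59, and Rptor, Rictor and Tsc1 were lower. Rptor, Rictor and Tsc1 were thus lower in both forms, at -1.98, -1.73 and -1.80 in the first and at -1.43, -1.18 and -1.24 in the other. Without centring, the value of Rictor was -0.07. Ddit4, Sesn2 and Eif4ebp1 were called in neither. Against WT, 8 were called in the planned form, beside 63.8% (7894), and 7 in the other, beside 62.5% (7735), and Eif4ebp1 was called higher in both, at 0.86 and 1.38.

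The scaling between libraries also bears on the values after MMPP. Over all tested genes the median difference from ADPKD was -0.36, and it was -0.55 with a common sum of FPKM, -0.14 with TMM-type factors and 0.10 with quantile normalization. Of the called genes, 39.3% were higher, against 54.0% with quantile normalization, 29.0% with the planned centring and 58.1% with the other. With a common sum it was 31.9%. Against WT, 40.8% of the called genes were higher, against 52.9% with quantile normalization, 32.0% with a common sum, 34.0% with the planned centring and 57.3% with the other.

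The wider pathway was described with 9 lists that together hold 98 tested genes, all 10 genes above included. In ADPKD against WT, 17 of the 98 were called, 10 higher and 7 lower, with a median log2 fold change of 0.06 beside 0.03 for all tested genes. This is a smaller share than the 26.7% of tested genes. With a common sum of FPKM 8 were called higher and 11 lower, and with quantile normalization 11 and 12.

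Of the 11 subunit genes of the complexes, 0 were called by limma in ADPKD, beside 26.7% of all tested genes, with a median of 0.02. Of the 11 subunit genes 5, Mtor included, had an unadjusted P under 0.05 at less than 1.5-fold on the log2(FPKM + 1) scale. With a pseudocount of 0.1, 1 of the 11 was called higher. The insulin and PI3K-AKT genes had 3 of 13 called, all lower, beside 12.5% of all tested genes called lower. Irs1, an adaptor of the insulin receptor, had 3.37 and 3.75 FPKM in WT and 1.13 and 0.866 in ADPKD, a log2 fold change of -1.19 (limma adjusted p = 0.00529). Irs2 had 90.2 and 91.2 FPKM in WT and 61.0 and 47.9 in ADPKD. Both insulin receptor substrates were lower in both ADPKD libraries. Irs2 was not called without ADPKD replicate 2, at -0.56. Irs1 and Irs2 are single-transcript genes, and after MMPP they had 2.63 and 2.07 and 87.1 and 79.1 FPKM, in that order.

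Of the Rag and Ragulator genes, which hold complex 1 at the lysosome, 1 of 13 was called, beside 26.7% of all tested genes. This was Fnip2, a partner of folliculin, with 7.58 and 7.75 FPKM in WT and 13.7 and 20.9 in ADPKD. The amino acid sensing genes also had 1 of 13, beside the same share. The called gene was the arginine sensor Castor1, at a log2 fold change of -0.62 (limma adjusted p = 0.0686), which misses 0.05 after adjustment. It was not called without WT replicate 2 (-0.41) or ADPKD replicate 1 (-0.43). These lists had medians of 0.12 and 0.07.

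Among 20 tested effectors, 3 were higher and 1 lower in ADPKD, beside 14.2% and 12.5% of all tested genes. Beside Eif4ebp1, the higher genes were Eif4e, the factor that 4E-BP1 binds, and Eif4b, a helper of ribosome loading, both at 0.62. Neither was called without WT replicate 1 (0.47 for Eif4e and 0.55 for Eif4b), without ADPKD replicate 2 (0.55 and 0.50) or with a common sum of FPKM (0.54 for both). Sgk1, a kinase that complex 2 activates and that promotes sodium transport in the collecting duct, had 362.5 and 374.9 FPKM in WT, 173.0 and 176.3 in ADPKD, and 4.66 and 4.11 in ADPKD+MMPP. It was lower in every mutant library, by 1.07 on the log2 scale in ADPKD (limma adjusted p = 0.00439), and by 5.03 in ADPKD+MMPP against ADPKD. Its exon share is 30.1%, and its fall lies far below the lower quartile of -1.94 of genes with a share of 30% to 40%.

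The 5 genes of the DDIT4 and sestrin list split. Sesn3 had 2.85 and 3.12 FPKM in WT, 6.50 and 6.22 in ADPKD, and 12.6 and 12.0 in ADPKD+MMPP. Sesn1 had 10.5 and 12.9 FPKM in WT, 6.62 and 5.80 in ADPKD, and 2.85 and 2.49 in ADPKD+MMPP. The log2 fold changes in ADPKD were 0.89 for Sesn3 (limma adjusted p = 0.00593) and -0.82 for Sesn1 (limma adjusted p = 0.0144). The exon shares are 83.2% for Sesn3 and 38.6% for Sesn1. Of the LKB1 and AMPK genes, 1 of 9 was called, beside 26.7% of all tested genes. It was Prkag2, a regulatory subunit of AMPK, at 0.78.

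ATF4, a transcription factor of the amino acid response that mTOR complex 1 can raise, had a list of 10 genes, of which 9 were tested. In ADPKD, 4 of the 9 were called higher and 0 lower by limma, beside 14.2% and 12.5% of all tested genes, with a median of 0.52. In both forms of centring by exon share 4 of 8 were called higher and 1 lower, Chac1. They were the serine synthesis genes Phgdh and Psat1, the asparagine synthetase gene Asns and the mitochondrial folate gene Mthfd2. Asns had 2.67 and 3.63 FPKM in WT and 8.81 and 11.7 in ADPKD, and Phgdh had 11.7 and 8.15 in WT and 33.0 and 28.9 in ADPKD. Both ADPKD libraries lay above both WT libraries for each. The log2 fold changes were 1.44 for Asns (limma adjusted p = 0.00595) and 1.56 for Phgdh (limma adjusted p = 0.00508). Atf4 itself stood at 344.5 and 385.7 FPKM in WT and at 296.5 and 280.2 in ADPKD, a log2 fold change of -0.34, and the stress genes Ddit3 and Chac1 were at -0.33 and -0.57. By limma, 0 of these 3 were called, although each had an unadjusted P under 0.05. Chac1 was called lower without WT replicate 1 (-0.79), with a common sum of FPKM or quantile normalization (-0.65 in both) and with TMM-type factors (-0.59).

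**Figure D3:**
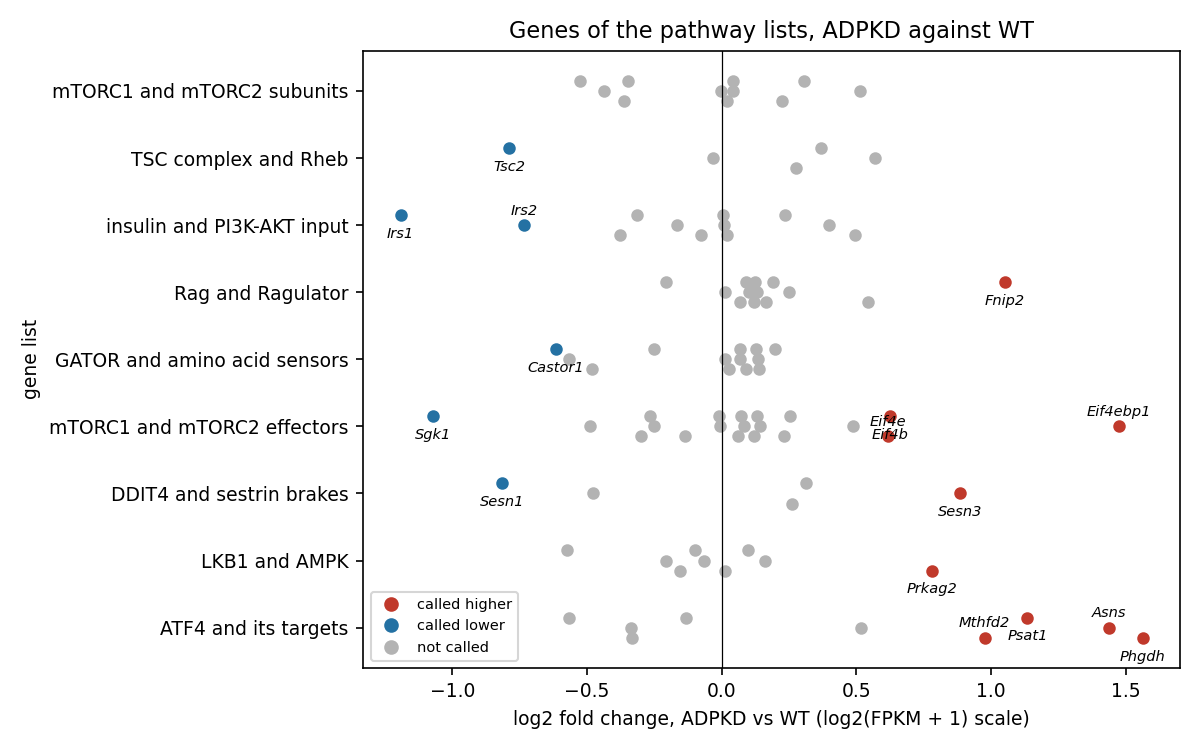
Log2 fold change of ADPKD against WT on the log2(FPKM + 1) scale for the tested genes of the 9 pathway lists, with 1 gene left out and 1 row a list; red points were called higher, blue points called lower and grey points not called. The called genes shown are named, and the ATF4 row has 4 genes called higher.

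After MMPP, 82 of the 98 genes were called against ADPKD, beside 70.9% of all tested genes, 33 higher and 49 lower, beside 27.9% and 43.0%, with a median of -0.58 beside -0.36 for all tested genes. Against WT 77 were called, beside 73.9%, 32 higher and 45 lower, beside 30.1% and 43.8%. With the planned centring by exon share 59 of 97 were called against ADPKD, beside 60.3% of protein-coding genes, 10 higher and 49 lower. With no median added back 47 of 97 were called, beside 58.4%, 25 higher and 22 lower. Against WT the planned centring called 60 of 97, beside 63.8%, 14 higher and 46 lower. The other form also called 60 against WT, beside 62.5%, 29 higher and 31 lower. With quantile normalization 35 were higher and 35 lower against WT, and 32 and 33 against ADPKD. The AMPK catalytic gene Prkaa2, with 1 transcript, had 7.73 and 6.54 FPKM in ADPKD and 33.4 and 31.1 in ADPKD+MMPP. Its paralog Prkaa1, with 0.795% of exon bases in 1 transcript, had 7.86 and 9.84 FPKM in ADPKD and was listed at 0.0728 and 0 in ADPKD+MMPP.

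The highest and lowest called genes of the other lists after MMPP are given as log2 fold changes against ADPKD with their exon shares. The insulin and PI3K-AKT list ran from Pik3ca at -2.70 (28.1%) to Pik3r2 at 1.16 (61.3%), the Rag and Ragulator list from Lamtor5 at -2.14 (16.3%) to Lamtor1 at 1.66 (84.4%), and the amino acid sensing list from Wdr59 at -1.09 (45.4%) to Castor2 at 1.97 (86.2%). The effectors ran from Sgk1 at -5.03 to Eif4ebp2 at 1.76 (75.4%), and the ATF4 list from Slc3a2 at -1.82 (45.1%) to Phgdh at 1.31 (75.2%). Against WT the extremes also included Igf1r at 1.29 (82.4%) and Depdc5 at -1.44 (28.1%).

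Promoter sequences of RefSeq, on build GRCm38.p6, were matched for 9 of the 10 genes and for all 10 of the ATF4 list. Eif4ebp1 had no entry. The letters TGATGNAA, a form of the composite site that ATF4 can bind with a C/EBP partner, were searched on both strands in the 250 bases before each start. Counting a gene when any of its promoters has them, they occur in 3.90% of all genes with a promoter (1055 of 27018), in none of the 9 and in 3 of the ATF4 list, Asns, Chac1 and Slc7a11. They also occur in 1 gene each of the insulin and PI3K-AKT list, the Rag and Ragulator list and the effectors. The promoter of Asns is shown because that gene was called higher in ADPKD. It lies on the minus strand at chr6:7693210-7693459, and capitals mark the match, 23 to 16 bases before the start.
Asns: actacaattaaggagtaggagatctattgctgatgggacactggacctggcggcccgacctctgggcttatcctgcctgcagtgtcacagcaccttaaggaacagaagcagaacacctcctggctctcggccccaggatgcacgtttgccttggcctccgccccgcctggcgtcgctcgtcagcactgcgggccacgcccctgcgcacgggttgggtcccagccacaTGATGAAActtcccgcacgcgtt

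The letters CACGTG, an E box that factors of the MiT family such as TFEB can bind, occur in 6.86% of these genes (1854). They were found in 1 of the 9, Rheb, and in 5 of the 12 matched Rag and Ragulator genes, Fnip1, Lamtor1, Lamtor4, Rragb and Rragc. They were also found in 5 of 17 matched effectors, Eef2, Eef2k, Eif4e, Eif4g1 and Sgk1, of which Eef2k, Eif4e and Sgk1 have 3, 2 and 6 promoters with the letters in 1, in 2 of 10 insulin and PI3K-AKT genes, Irs1 and Irs2, and in 2 of 4 genes of the TSC and Rheb list, Rheb and Tbc1d7. They occur in 0 matched genes of the other lists. Both searches describe letters in these windows and not binding.

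For each of the 10, the protein-coding gene outside the lists with the most similar profile was taken from 7034 genes with a mean of at least 5 FPKM, by Pearson r over the 6 libraries. As the libraries form 3 groups, r describes likeness only. The nearest were Emc7 for Mtor (r = 0.999), Rpl10a for Tsc1 (0.9999), Map3k8 for Tsc2 (0.999), Smc3 for Rheb (0.999), Col5a1 for Eif4ebp1 (0.995) and Strap for Sesn2 (0.999). Pxdn was nearest to Rptor (0.9995), Map3k6 to Rps6kb1 (0.998) and Fam122a to Ddit4 (0.990). Rictor had the least similar neighbour, Fbxo28 (0.926).

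Several lists of cell type markers differed between the groups, while the principal cell and thick ascending limb sums overlapped between WT and ADPKD. Each list is given by its summed FPKM, and fewer cells of a type and less RNA per cell cannot be told apart. The 9 principal cell genes, led by Aqp2, summed to 2096 and 2796 in WT, 2502 and 956.5 in ADPKD, and 5437 and 5458 in ADPKD+MMPP. ADPKD replicate 2 thus had the lowest principal cell sum, and Avpr2 was below 0.1 FPKM in every library. Aqp4 and Scnn1b were not lowest in that library, while the other genes of the list were. After MMPP 4 of the 8 tested genes were called higher and 2, Aqp4 and Scnn1b, lower against ADPKD. Over all tested genes these shares were 27.9% and 43.0%. In ADPKD against WT 1 was called higher and 0 lower by limma, beside 14.2% and 12.5% of all tested genes. The same shares apply to the marker counts that follow. The 7 intercalated cell genes, led by Slc26a4, summed to 274.1 and 290.5 in WT, 63.4 and 29.2 in ADPKD, and 184.4 and 194.1 in ADPKD+MMPP, and all 7 were called lower in ADPKD against WT, while 6 were called higher in ADPKD+MMPP against ADPKD.

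Markers of other cells differed as well. The 8 macrophage genes, led by Lyz2, summed to 69.2 and 68.5 in WT, 526.7 and 635.4 in ADPKD, and 1160 and 1213 in ADPKD+MMPP, and all 8 were called higher in ADPKD. The larger sum after MMPP comes from Lyz2 and the 3 C1q genes, with exon shares from 88.7% to 100%. The other 4, Csf1r among them (17.04 and 25.6 FPKM in ADPKD, 0.381 and 0.190 in ADPKD+MMPP, exon share 33.3%), were called lower against ADPKD. The 4 podocyte genes, led by Podxl, summed to 872.0 and 1187 in WT, 198.6 and 86.8 in ADPKD, and 89.5 and 86.9 in ADPKD+MMPP. The 5 endothelial genes, led by Cdh5, summed to 680.4 and 555.2, 267.8 and 257.0, and 112.5 and 112.8 in the same order. All podocyte and endothelial genes were called lower in ADPKD.

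The 6 fibroblast genes, led by Pdgfrb, summed to 105.3 and 83.8 in WT, 151.7 and 170.7 in ADPKD, and 161.5 and 170.0 in ADPKD+MMPP. These sums hide a split. Pdgfrb had 91.3 and 65.6 FPKM in WT, 38.9 and 31.4 in ADPKD, and 1.051 and 0.837 in ADPKD+MMPP, while Col1a1 had 0.364 and 0.389 in WT, 32.3 and 33.4 in ADPKD, and 61.6 and 70.1 in ADPKD+MMPP. In ADPKD 4 of the 6 were called higher and 1 lower, beside 14.2% and 12.5% of tested genes. After MMPP 2 were higher and 3 lower against ADPKD, beside 27.9% and 43.0%.

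The 12 proximal tubule genes, led by Kap, summed to 824.1 and 616.9 in WT, 2086 and 1502 in ADPKD, and 24300 and 23150 in ADPKD+MMPP. In ADPKD 5 of the 12 were called higher and 1, Miox, lower. Most of the larger sum in ADPKD was Gpx3, with 378.4 and 395.9 FPKM in WT and 1274 and 1300 in ADPKD, while Kap had 233.8 and 101.3 in WT and 508.9 and 64.0 in ADPKD. After MMPP 10 of the 12 were called higher and 0 lower by limma against ADPKD, and 11 higher against WT. They include genes with low exon shares, Kap (34.4%), Slc5a2 (24.4%) and Miox (21.9%), against the trend with that share. The 2 not called against ADPKD also have low shares, Slc5a12 (13.5%) at -0.32 and Slc34a1 (36.1%) at 1.89. The 5 thick ascending limb genes, led by Umod, summed to 1219 and 441.4, 606.3 and 195.9, and 161.0 and 155.8, and the 3 distal convoluted tubule genes, led by Slc12a3, to 95.1 and 82.6, 44.3 and 20.9, and 72.7 and 73.6, in the same order. Both sums follow the leading gene, while Trpm6 of the distal list was called higher in ADPKD and lower after MMPP, and Cldn10 of the limb list was called higher after MMPP. The 9 dissociation and stress genes, led by Junb, summed to 9425 and 10050 in WT, 5790 and 4325 in ADPKD, and 11180 and 11330 in ADPKD+MMPP. In ADPKD against WT 0 of the 9 were called higher and 5 lower by limma, beside 14.2% and 12.5% of tested genes. After MMPP 6 of the 9 were called higher and 2, Fosb and Atf3, lower against ADPKD, beside 27.9% and 43.0%. Against WT 3 were higher and 3 lower in ADPKD+MMPP, beside 30.1% and 43.8%. The WT and ADPKD libraries thus differed in markers of intercalated cells and in markers of cells outside the collecting duct. For ADPKD+MMPP the marker lists were not centred by exon share. The part of these markers in the values of the mTOR pathway genes was not tested.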

How the data were processed

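The study's methods and the sample text describe RNA of DBA-positive kidney cells; the sample text also names whole kidney. The authors aligned reads to GRCm38 with HISAT2 2.1.0, counted them with featureCounts 1.6.0 and deposited FPKM values. The annotation release and the step from counts to FPKM are not given in the sources used here. Positions, exon lengths and transcripts were taken from GENCODE vM21 for 53186 of 55367 symbols. Multiplying FPKM by exon length gave whole reads (within 0.05) for 98.3% to 99.0% of low values, and so the depths.

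Genes reaching 1 FPKM in at least 2 libraries entered a single limma model of the 3 groups on the log2(FPKM + 1) scale (limma 3.58.1, R 4.3.3). The alternatives covered pseudocount, filter, scaling, trend, groups fitted, thresholds, replicate block, each library left out and centring by exon share in 18 bins. The centring was run first with the median of the library added back; the form without it was added after its result was seen.

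Named genes are the 10 genes, the called extremes of each list (1 is not printed), Pkd1 and Esr1, the nearest profile to each gene and the most abundant marker of each list; Irs2, Eif4e, Eif4b, Psat1, Mthfd2, Asns, Atf4, Ddit3, Chac1, Avpr2, Csf1r, Col1a1, Miox, Gpx3, Slc5a2, Aqp4, Scnn1b, Trpm6, Cldn10, Fosb, Atf3 and the genes with promoter letters were named after their values were seen. Slc5a12 and Slc34a1 were also named after their values were seen. The genes and lists were chosen with earlier results of these data known.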

Additional observations from a re-analysis of the deposited data

How the results depend on the processing

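Values are log2 fold changes unless called counts, and the causes of the differences were not tested. Outside centring by exon share and left-out libraries, the 10 genes kept direction and side of the threshold in 103 of 109 values for ADPKD against WT, 102 of 109 for ADPKD+MMPP against ADPKD and 95 of 109 for ADPKD+MMPP against WT. With at least 5 FPKM required, Rptor was not tested and gave no value.

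In ADPKD against WT, 4 of the 10 genes were called with quantile normalization, beside 4109 of 14862 tested genes, and 1 at a fold change of at least 2. Of all tested genes, 2583 were called with at least 5 FPKM required, where fewer genes were tested, and 1951 at the 2-fold threshold, where 8 genes of the pathway lists were called. Tsc2, at -0.79, misses that threshold. Quantile normalization had Tsc1 called at 0.59 and Ddit4 at -0.62. Rictor reversed to -0.057 with a common sum, -0.0027 with quantile normalization and -0.0065 with TMM-type factors. With the planned centring Rptor reversed to 0.023 and Ddit4 was called at -0.59. With the form chosen after that result was seen, Rictor was at -0.013 and Ddit4 at -0.62. In all, 16 of 20 centred values kept direction and call.

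With 1 library left out, 51 of 60 values kept both, and the lone library of a group is assumed to vary like the others. The ranges were -0.098 to 0.093 for Rptor, -0.058 to 0.099 for Rictor, -0.094 to 0.027 for Rheb, 0.42 to 0.72 for Tsc1 and -0.76 to -0.20 for Ddit4. Rptor changed sign without WT replicate 1 or ADPKD replicate 1, Rictor without WT replicate 1 or ADPKD replicate 2, and Rheb without WT replicate 2 or ADPKD replicate 1.

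In ADPKD+MMPP against ADPKD, Rictor reversed to 0.34 with quantile normalization and 0.23 with TMM-type factors, and Rps6kb1 to 0.24 with quantile normalization. A common sum took Rheb to 0.52, not called, and Rps6kb1 to -0.60, called, and TMM-type factors had Eif4ebp1 called at 0.69. Rheb, at 0.82, misses the 2-fold threshold. The planned centring gave Mtor 0.039, Rictor -1.73, Rheb -0.85, Rps6kb1 -1.11, Eif4ebp1 -0.61, Ddit4 -0.58 and Sesn2 -0.40. The other form gave Rictor -1.18, Tsc2 -0.34, Rheb -0.29, Eif4ebp1 -0.053, Ddit4 -0.024 and Sesn2 0.15, with 4 of the 10 genes and 47 of the pathway lists called. Of 20 centred values, 7 kept direction and call, and so did 58 of 60 with 1 library left out. The ranges were -0.15 to 0.011 for Rictor, positive without ADPKD replicate 2, and 0.064 to 0.66 for Eif4ebp1.

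In ADPKD+MMPP against WT, Rictor reversed to 0.34 with quantile normalization and 0.23 with TMM-type factors. Rheb was not called with a common sum, at 0.40, nor at 2-fold, at 0.78. Rps6kb1 was not called with quantile normalization (-0.088), TMM-type factors (-0.36) or at 2-fold (-0.62). Ddit4 was not called with a pseudocount of 0.1 (0.61), a common sum (0.21) or quantile normalization (0.12), nor, at 0.60, without the filter, by adjusted p or at 2-fold. The planned centring gave Mtor -0.40, Rictor -1.71, Rheb -0.88, Ddit4 -1.17 and Sesn2 -0.21, and the other form Mtor 0.12, Rictor -1.19, Rheb -0.36, Ddit4 -0.65 and Sesn2 0.31. Of 20 centred values, 10 kept direction and call, and so did 56 of 60 with 1 library left out. The ranges were -0.10 to 0.0078 for Rictor, positive without WT replicate 2, and 0.39 to 0.82 for Ddit4.

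With the replicate number as a block, 4055, 10595 and 11038 genes were called in the 3 comparisons, and 2, 7 and 8 of the 10 genes. Ddit4 against WT, at 0.60, was then not called. The labels give no pairing of replicates across groups.

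A depth near 11.8 M reads limits the lowest values after MMPP, where Rptor rests on 22 and 14 reads. The annotation release, the FPKM lengths, the strand of counting and the number of mice behind each library are not given in the sources used here, and the sample text names whole kidney beside the DBA-positive cells of the study's methods. With 2 libraries a group, the p-values rest on the spread that limma shares between genes, which may be technical. RNA levels do not show mTOR activity, and mixed cells, genotype, treatment and counting cannot be told apart where they go with the groups.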
